A study of Rattus norvegicus with 15 samples.

Results

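The starved control state of cultured rat aortic smooth muscle cells (SMC) is described here from the 4 libraries labelled Ctrl SMC, of 15 libraries in the series. The members are the libraries whose titles begin with that name, so no measured value entered the choice. The series holds 4 groups, and the other three are SMC carrying Myocd-LSD1 (4 libraries), SMC carrying Myocd-LSD1NF (4 libraries) and SMC given PDGF-BB (3 libraries), whose values were not used. The control cells carry the cell line label WT and the treatment label untreated. They were grown with 10% fetal bovine serum and 1.6 mM L-glutamine, and then kept for 72 h in medium with neither serum nor insulin before RNA was taken. All values therefore describe a serum-starved culture of 1 labelled line, and the labels used here name no strain, sex, passage or culture dish. The labels give the 4 libraries numbers but do not say that they came from separate cultures, so the spread between them may be technical. In bulk RNA, fewer cells expressing a gene and less of its RNA per cell cannot be told apart.

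SMC of the aorta contract through actin and myosin filaments and also lay down the elastic and collagen layers of the vessel wall. Their contractile genes are switched on by serum response factor, a DNA-binding protein that recognises the CArG box, together with its coactivator myocardin. In culture, SMC can lose part of this contractile set and make more matrix, and serum withdrawal is widely used to slow their division.

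Values are TPM (transcript abundances, corrected by the authors for transcript length and library total), so levels of different genes within a library can be set side by side. Where 4 values follow each other they belong to libraries 1, 2, 3 and 4 in that order, and a mean is given ± SD over these 4 libraries. Means under 1 TPM are given without SD, since they can include libraries listed at 0. Of 84 named genes with such a mean above 0, 41 had one that moved over 1.5 times or fell to 0 when 1 library was left out, most often library 4 (16 genes), so these means say that a level was low and little more. A gene is called expressed here at a mean of 1 TPM or more. Of 32623 gene entries in the table, 11593 reached that level, with 11440 to 11610 in the single libraries. Counts of expressed list members further on are to be read beside this share. A further 4263 entries were above 0 with a mean under 1 TPM, and 16767 were listed at 0 in all 4 libraries, so the median entry was at 0. Means of 10 TPM or more were reached by 8226 entries, of 100 TPM or more by 1523 and of 1000 TPM or more by 159. Pearson's r between pairs of libraries, over the expressed entries on the log2(TPM + 1) scale, ran between 0.974 (libraries 2 and 4) and 0.987 (libraries 1 and 2). A listed 0 is not proof of absence, since Snrpg, a core spliceosome protein gene, had 19.1, 0, 36.8 and 24.3 TPM.

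Some markers of smooth muscle, the labelled cell type, were among the most abundant genes, while others were low or listed at 0. Acta2, the smooth muscle actin, had 9197, 9789, 10783 and 9103 TPM. Tagln, an actin-binding protein of smooth muscle, had 7277, 7724, 8907 and 6806 TPM, and Cnn1, the smooth muscle calponin, had 1219.7, 1485, 1543 and 1109 TPM. Eln, the elastin precursor, had 14327, 11322, 15036 and 11473 TPM. These 4 genes ranged less than 1.5-fold between libraries. Spp1, osteopontin, which is often called a marker of the matrix-producing state, had 12863, 17755, 8007 and 6352 TPM, so it was highest in library 2 and lowest in library 4. Smtn (smoothelin) averaged 486 ± 31.3 TPM and Lmod1 (leiomodin) 126 ± 29.8 TPM. Myh11, the smooth muscle myosin heavy chain and the most specific of these markers, had 23.03, 18.5, 22.8 and 21.7 TPM, far under the actin-binding markers. Other genes known from contractile SMC, among them Des, Kcnma1 and P2rx1, were lower still, with values given further on.

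The most abundant transcripts came from genes of the respiratory chain, the elastic and matricellular matrix, the actin cytoskeleton and protein synthesis. The 20 highest entries together held 16.3 ± 1.06% of all TPM, and the 1000 highest held 68.3%. At the head stood Mt-co1, a mitochondrially encoded subunit of cytochrome oxidase, with 18713, 15144, 11966 and 15312 TPM. Eln came next with a mean of 13039 ± 1919 TPM, then Spp1 with 11244 ± 5145 TPM and the mitochondrial Mt-cox3 with 10631 ± 1762 TPM. The elongation factor Eef1a1 averaged 9883 ± 1506 TPM, so elastin and osteopontin outranked this main factor of protein synthesis by mean, though Spp1 was below it in libraries 3 and 4. Acta2 had rank 6 by mean. Behind it came the mitochondrial Mt-atp6, the matrix protein periostin (Postn), the cytoplasmic actin Actb and the proteoglycan biglycan (Bgn). Postn had 9374, 10218, 4893 and 9781 TPM, and library 3 was the low one. Sparc, which binds collagen and calcium, had 7483, 6809.5, 8074 and 9051 TPM. Ctgf, a matricellular target of YAP and TGF-beta signalling, had 6345, 8762, 7548 and 6916 TPM, and Thbs1, thrombospondin 1, had 5406, 5449, 3809 and 6345 TPM. Further down the 30 highest were 2 regulators of actin assembly, destrin (Dstn), with 4609.7, 6257, 3872 and 3125 TPM, and thymosin beta 4 (Tmsb4x), with 4661, 3358, 6094 and 3686 TPM.

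**Figure D1:**
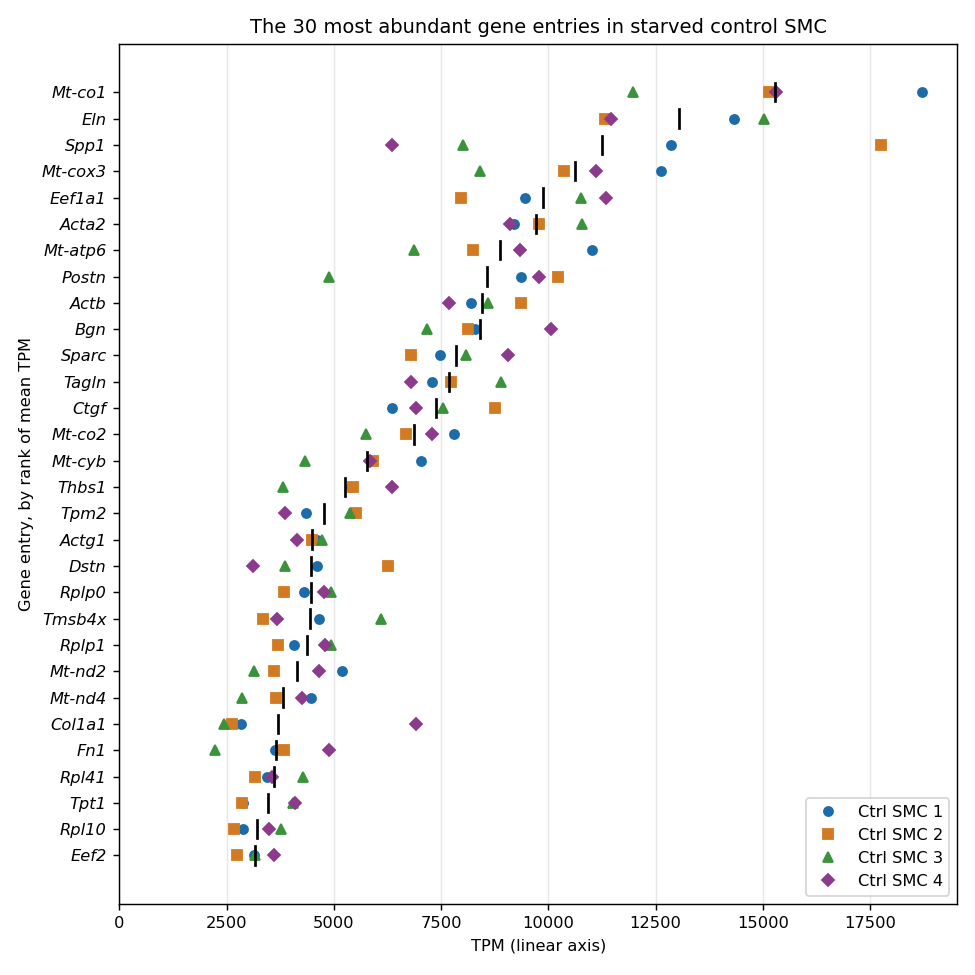
The 30 gene entries with the highest mean, one row each, with TPM on a linear horizontal axis. Each symbol is 1 of the 4 control libraries and the black tick is their mean. Mt-co1 and Eln lead, and Spp1 has the widest range in TPM of the 30, with 6352 to 17755 TPM.

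By share of all TPM, the matrix lists held 11.1 ± 0.912%, the contractile lists 7.42 ± 0.657% and the 13 mitochondrially encoded genes 6.54 ± 1.15%. The ribosomal protein entries that could be matched held 7.67 ± 1.24%. This is a minimum, since numbered copies and symbols with no digit straight after Rps or Rpl were left out. Rplp0, Rplp1 and Rpsa, with means of 4462, 4374 and 2558 TPM, were among those left out. The mitochondrial share was 7.88% in library 1, 6.34% in library 2, 5.11% in library 3 and 6.82% in library 4. Library 3 thus had the lowest mitochondrial share, and with 9.27% it had the highest ribosomal share. All 28 glycolytic enzyme genes together held 0.649 ± 0.0412%.

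**Figure D2:**
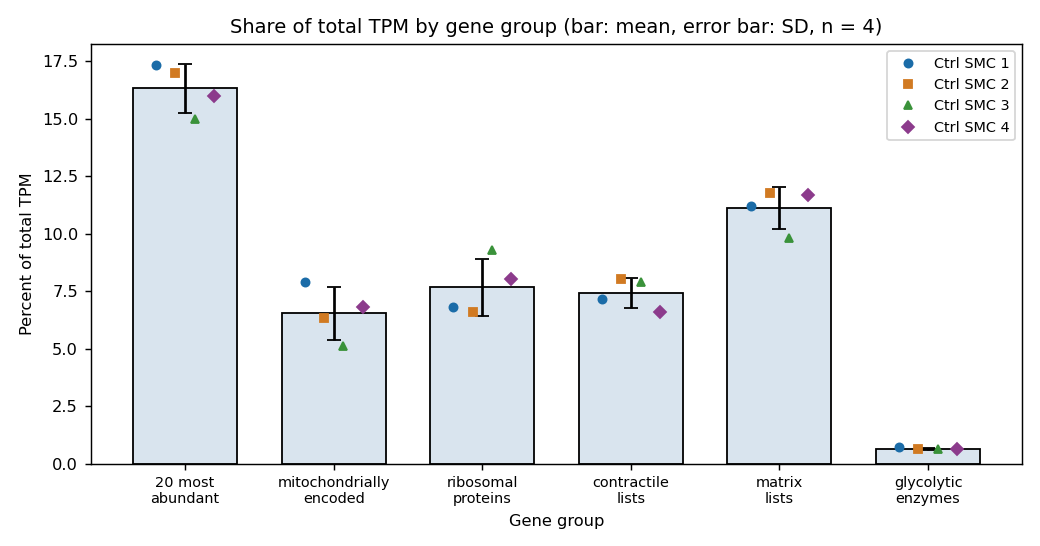
Percent of total TPM taken by each gene group. Bars are means, error bars are SD over the 4 control libraries and symbols are the single libraries. Matrix lists take 11.1% and contractile lists 7.42%, against 0.649% for glycolytic enzymes.

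Among the 7 actin genes, 3 carried nearly all of the RNA. Acta2 made up 42.5 ± 1.51% of the summed actin TPM, ahead of the cytoplasmic actins Actb with 8464 ± 708 TPM and Actg1 with 4492 ± 247 TPM. The skeletal muscle actin Acta1 was next, with 206, 119, 207 and 88.2 TPM. Actg2, the smooth muscle actin best known from gut and bladder, had 28.2, 15.6, 25.96 and 19.5 TPM. The cardiac actin Actc1 had 0.45, 1.02, 0.23 and 5.4 TPM, above 2 TPM in library 4 alone. Actbl2 was listed at 0 in all 4 libraries. The order Acta2, Actb, Actg1, Acta1, Actg2, Actc1 held in all 4 libraries, although the ranges of Acta2 and Actb over the libraries overlapped.

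The proximal promoters of Acta2, Actg1, Acta1, Actg2 and Actc1 are shown, with those of the calponins Cnn1 and Cnn2. Those of Srf (serum response factor) and of Egr1, a known early target of that factor, are also given. Their letters can be set beside levels that differ this widely. The promoters of Actb and Actbl2 are not shown, and nothing is said of them. Each line holds the 120 bases before the annotated start, 5′ to 3′ on the gene's strand, from RefSeq's GRCr8 rat assembly. Capitals mark a CArG box, or the same 10 letters with 1 G or C allowed in the A and T core, and in Acta1 also the letters TATAAA as read on the line. A CArG box reads the same class of letters on both strands.
Acta2: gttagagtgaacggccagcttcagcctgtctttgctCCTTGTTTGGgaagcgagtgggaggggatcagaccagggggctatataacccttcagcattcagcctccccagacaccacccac
Actg1: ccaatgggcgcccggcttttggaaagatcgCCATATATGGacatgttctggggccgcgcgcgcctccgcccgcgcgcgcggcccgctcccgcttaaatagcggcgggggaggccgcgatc
Acta1: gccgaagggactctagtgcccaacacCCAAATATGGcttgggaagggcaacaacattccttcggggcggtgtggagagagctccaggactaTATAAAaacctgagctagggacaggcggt
Actg2: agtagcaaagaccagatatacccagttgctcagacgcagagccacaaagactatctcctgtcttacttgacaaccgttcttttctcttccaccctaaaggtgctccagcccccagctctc
Actc1: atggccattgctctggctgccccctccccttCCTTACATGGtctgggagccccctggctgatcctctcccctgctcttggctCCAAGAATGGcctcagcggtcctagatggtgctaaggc
Cnn1: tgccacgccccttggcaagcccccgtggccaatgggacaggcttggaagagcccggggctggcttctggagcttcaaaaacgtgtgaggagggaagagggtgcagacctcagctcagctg
Cnn2: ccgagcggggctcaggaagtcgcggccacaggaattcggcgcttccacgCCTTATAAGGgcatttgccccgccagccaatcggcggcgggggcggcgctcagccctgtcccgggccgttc
Srf: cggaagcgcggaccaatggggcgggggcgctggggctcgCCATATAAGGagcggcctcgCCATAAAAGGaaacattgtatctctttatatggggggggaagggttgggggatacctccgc
Egr1: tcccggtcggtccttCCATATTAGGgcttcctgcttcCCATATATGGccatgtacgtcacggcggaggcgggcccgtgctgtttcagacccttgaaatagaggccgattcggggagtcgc

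The lines lie for Acta2 at chr1:241172504-241172623 (minus strand), Actg1 at chr10:106120952-106121071 (minus strand) and Acta1 at chr19:68784195-68784314 (minus strand). They lie for Actg2 at chr4:117594040-117594159 (minus strand), Actc1 at chr3:121271828-121271947 (minus strand) and Cnn1 at chr8:28908317-28908436 (plus strand). They lie for Cnn2 at chr7:10370313-10370432 (minus strand), Srf at chr9:21923956-21924075 (plus strand) and Egr1 at chr18:26736958-26737077 (plus strand). In the 250 bases before the start, a full CArG box was found once for Actg1, Acta1 and Cnn2. Srf and Egr1 held 2 each. In the 120 bases shown, the Actg1 box begins 90 bases before the start, the Acta1 box 94 and the Cnn2 box 71. The Srf boxes begin 81 and 61 bases before it, and those of Egr1 105 and 83. Acta2, the highest of the actins, held no full box in this window, and the marked run that begins 84 bases before its start has 1 G in the core. Actc1, under 2 TPM by mean, held 2 such runs with 1 letter off in the 120 bases, while Actg2 and Cnn1 held neither kind. In the 250 bases, runs that were full or 1 letter off numbered 2 for Acta2, 3 for Acta1 and 3 for Actc1. Levels and matches therefore did not run in parallel among these 9 genes, and a promoter without a match says nothing of CArG boxes elsewhere at the gene. A full box was found in 501 of 33469 promoters of the table (1.497%), and in 8.08% when 1 letter off was allowed. TATAAA on either strand was found in 12.9%. It overlapped no marked CArG run in the lines above. Of 98 entries with a mean of 1000 TPM or more that had a promoter in the table, 4 held a full box (4.08%), and these were Actg1, Rplp1, Fhl1 and Egr1. The share was 1.56% at 100 to under 1000 TPM, 1.33% at 10 to under 100 TPM and 1.42% at 1 to under 10 TPM. It was 1.20% above 0 and under 1 TPM, and 1.32% among entries listed at 0. The matches are descriptions of letters, and binding was not measured.

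The thin filament list had 13 expressed members of 16 matched, and their median of 471 TPM stands beside a median of 0 over all entries. Tropomyosins, which lie along the actin filament, were led by Tpm2 with 4359, 5515, 5369 and 3859 TPM. Tpm1 averaged 1881 ± 232 TPM, Tpm4 1073 ± 132 TPM and Tpm3 153 ± 14.1 TPM. Cald1 (caldesmon), which holds back actin-activated myosin, had 2603, 3242, 1946 and 1688 TPM. All 3 calponins were expressed, Cnn1 with 1339 ± 208 TPM, Cnn2 with 527 ± 54.5 TPM and Cnn3 with 335 ± 22.98 TPM. Of the transgelins, Tagln2 averaged 456 ± 85.05 TPM, while the neuronal Tagln3 averaged 0.352 TPM. Lmod3, the leiomodin of skeletal muscle, averaged 0.182 TPM and Smtnl1 was listed at 0. A single troponin was high. Tnnc1, the calcium-binding troponin C of heart and slow muscle, had 781, 1083, 1119 and 689.8 TPM and made up 98.2 ± 0.694% of the summed troponin TPM. The troponin T gene Tnnt2 had 7.13, 12.9, 12.5 and 14.6 TPM, and the inhibitory subunits Tnni1, Tnni2 and Tnni3 averaged 0.26, 0.0125 and 0.31 TPM.

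Among myosin heavy chains the nonmuscle Myh10 led with 453, 658, 433 and 489 TPM, and it made up 89.2 ± 1.24% of the summed heavy chain TPM. Myh11 averaged 21.5 ± 2.07 TPM and the nonmuscle Myh14 16.99 ± 4.74 TPM. Myh3, the embryonic skeletal muscle heavy chain, had 5.85, 37.8, 2.31 and 31.7 TPM, high in libraries 2 and 4 and low in the others. The entry named Myh9, the other widely expressed nonmuscle heavy chain, had 2.36, 2.26, 3.63 and 0 TPM, and whether its reads were assigned to another entry was not tested. The cardiac Myh6 was listed at 0 and Myh7 averaged 0.0175 TPM. The main light chains were higher than any heavy chain. Myl9, the regulatory light chain of smooth muscle, had 2772, 3155, 2755 and 1771 TPM, and Myl12a had 1903, 2754, 1831 and 1629 TPM. Myl6, the essential light chain, averaged 1430.2 ± 234 TPM. The heart chains Myl2 and Myl7 were at 0.15 TPM and at 0. Of the genes that set light chain phosphorylation, the kinase Mylk had 25.4, 50.6, 39.7 and 51.5 TPM, with library 1 the low one. Rhoa, the small GTPase that activates the Rock kinases, was the highest of that list with 617, 625, 627 and 613 TPM, and was among the 12 steadiest genes of the table. Rock2 averaged 142 ± 23.9 TPM and Rock1 105 ± 15.8 TPM. Ppp1r14a, the phosphatase inhibitor CPI-17 of smooth muscle, had 39.8, 80.5, 79.4 and 29.4 TPM, so that libraries 2 and 3 stood above 1 and 4.

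The most abundant intermediate filament gene was that of vimentin. Vim had 2515, 2615, 2785 and 2891 TPM, and made up 83.8 ± 1.42% of its list. Des (desmin), the filament of mature muscle, averaged 0.87 TPM, under the level called expressed. Among dense body and focal adhesion proteins 30 of 36 were expressed. Flna, a filamin that crosslinks actin, had 2261, 2642, 1934 and 2187 TPM. The LIM proteins Csrp1 and Fhl1 averaged 2093 ± 263 TPM and 1786 ± 253 TPM, and vinculin (Vcl) 1062 ± 85.2 TPM. Of the alpha-actinins, Actn1 averaged 940.5 ± 72.2 TPM and Actn4 757 ± 68.3 TPM, while the striated muscle genes Actn2 and Actn3 averaged 0.242 and 0.0975 TPM. Csrp2, a LIM protein of smooth muscle, had 60.4, 59.6, 132 and 55.4 TPM, highest in library 3. Fhl5 and Pdlim3 were listed at 0. Of the caveolins, Cav1 had 2225, 1898, 2172 and 1862 TPM and the muscle gene Cav3 105, 134, 135 and 81.03 TPM. Ptrf, the cavin that coats caveolae, averaged 729 ± 92.05 TPM. Gja1 (connexin 43) was the highest connexin with 646, 786, 570.2 and 407 TPM, while Gja5 averaged 0.818 TPM and Gjb1 was listed at 0.

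**Figure D3:**
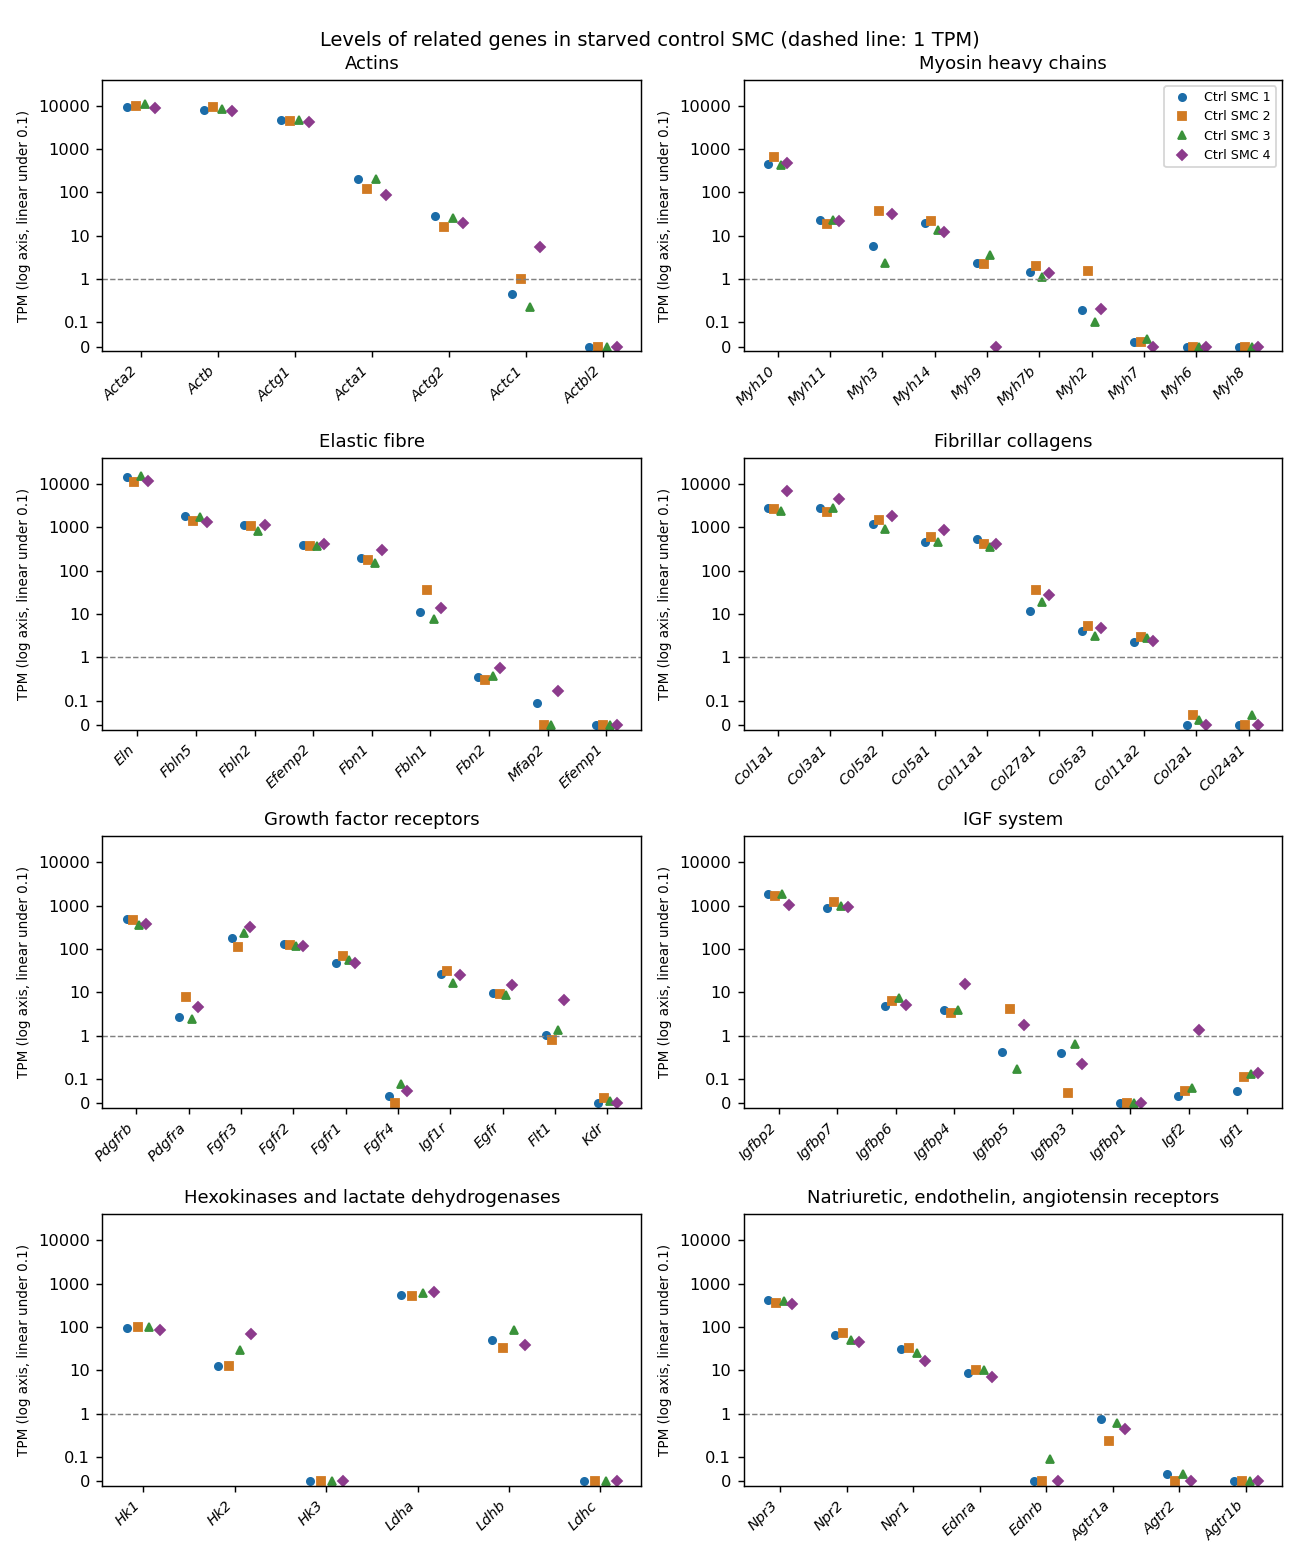
Levels of related genes in 8 families or systems, on a log axis that is linear under 0.1 TPM, with the expression limit of 1 TPM dashed. Each symbol is 1 control library. Within a family some members sit above 1000 TPM while others are at or near 0, such as Acta2 and Actbl2, Col1a1 and Col2a1, and Igfbp2 and Igfbp1.

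Elastin was the most abundant matrix gene by mean. Eln made up 67.5 ± 4.40% of the summed TPM of its list, in which 21 of 25 members were expressed with a median of 81.2 TPM. Fbln5, which tethers elastin to cells and microfibrils, had 1785, 1422, 1723 and 1333 TPM. Fbln2 averaged 1036 ± 159.5 TPM and Efemp2 (fibulin 4), needed for elastin crosslinking, 389.6 ± 18.3 TPM. Its close relative Efemp1 (fibulin 3) was listed at 0 in all 4 libraries. The crosslinking enzyme Lox had 1071, 1033, 745 and 1077 TPM. The related Loxl1, Loxl2 and Loxl3 averaged 122 ± 16.3 TPM, 81.2 ± 32.7 TPM and 67.6 ± 18 TPM. Of the microfibril proteins, Fbn1 (fibrillin 1) had 199.8, 177, 149 and 302 TPM, whereas Fbn2 averaged 0.403 TPM. Mfap5 had 149, 179.7, 60.95 and 88.3 TPM, and its relative Mfap2 averaged 0.065 TPM. The latent TGF-beta binding proteins ran in the order Ltbp2 (726 ± 139 TPM), Ltbp3 (414 ± 41.3 TPM), Ltbp1 (176 ± 30.5 TPM) and Ltbp4 (41.02 ± 18.3 TPM).

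Collagens I, III and V led the fibrillar group, and library 4 was the high one. Col1a1 had 2829, 2621, 2438 and 6921 TPM. Col3a1 had 2824, 2279.7, 2862 and 4559 TPM, and Col5a1 had 468, 598, 460.3 and 867 TPM. The gene for the other chain of collagen I, Col1a2, was not matched by symbol and was not used here. The fibrillar list and the matrix share therefore leave it out. Col11a1, best known from cartilage, had 543, 421, 347 and 404 TPM, yet its cartilage partner Col2a1 averaged 0.015 TPM and Col24a1 0.01 TPM. Among the other 32 collagen genes, 16 were expressed. Col8a1, a network collagen of vessel walls, had 1568, 1532, 535 and 937 TPM, so it was lowest in library 3. The basement membrane chains Col4a1 and Col4a2 averaged 886 ± 194 TPM and 721 ± 179 TPM, while Col4a3 and Col4a4 averaged 0.75 and 0.98 TPM. Col6a1 and Col6a2 averaged 77.7 ± 14.6 TPM and 112 ± 13.1 TPM, but the entry for their usual partner Col6a3 had 0.03, 0.00921, 0.02 and 0.1 TPM, and whether its reads were assigned to another entry was not tested. Col10a1, a collagen of growth plate cartilage, had 35.6, 36.4, 3.75 and 2.29 TPM, high in libraries 1 and 2. Of the enzymes and chaperones of collagen processing, 21 of 22 were expressed. Serpinh1, the collagen chaperone HSP47, had 1591, 1543, 1627 and 1904 TPM. The lysyl hydroxylase Plod2 averaged 1508 ± 95.4 TPM, above Plod3 with 187 ± 19.4 TPM and Plod1 with 118 ± 22.3 TPM.

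Matricellular genes held the largest summed level of the lists. Fn1 (fibronectin) had 3640.4, 3828, 2241 and 4897 TPM, lowest in library 3 and highest in library 4. Of the CCN family, Ctgf averaged 7393 ± 1037 TPM, Nov 3073 ± 1059 TPM, Cyr61 2410.1 ± 369.7 TPM, Wisp2 1148 ± 200.1 TPM and Wisp1 110.2 ± 22.1 TPM, while Wisp3 averaged 0.0175 TPM. Nov had 2935, 4428, 3085 and 1843 TPM, the widest spread of the expressed members in fold. Mgp, an inhibitor of calcification, had 822, 1139, 543 and 275 TPM, and the order of libraries was that of Spp1. Tnc (tenascin C) had 344, 277, 187 and 432 TPM, and the related Tnn had 10.9, 39.3, 13.98 and 136 TPM, with library 4 far above the rest. Thrombospondins ran from Thbs1 down to Thbs2, with 20.9, 76.4, 33.97 and 119 TPM, and Thbs4, with a mean of 0.035 TPM. Sparcl1, the closest relative of Sparc, averaged 0.035 TPM, and the bone proteins Ibsp and Bglap were at 0.188 TPM and at 0.

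Proteoglycan RNA was mostly biglycan. Bgn made up 79.5 ± 2.93% of its list with 8301, 8131, 7166 and 10066 TPM, whereas decorin (Dcn), its closest relative and a fibroblast marker, averaged 0.312 TPM. Fmod (fibromodulin) had 337, 493, 608 and 602 TPM. Lum (lumican) had 26.5, 21.6, 31.3 and 8.37 TPM, and library 4 was low. Versican (Vcan), a large proteoglycan of injured vessels, had 11.9, 5.17, 7.5 and 20.3 TPM, and aggrecan (Acan) averaged 0.015 TPM. The hyaluronan synthases Has1, Has2 and Has3 averaged 0.17, 0.0125 and 0.138 TPM, all under the level called expressed. Laminin chains were led by Lamc1 (265 ± 83.2 TPM), Lamb1 (226 ± 16.6 TPM) and Lama5 (147 ± 42.3 TPM), and the other alpha chains Lama1, Lama2, Lama3 and Lama4 averaged 0.13, 0.117, 0.0397 and 0.873 TPM. Among syndecans Sdc4 had 428, 515, 703 and 837 TPM, with libraries 3 and 4 above 1 and 2.

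Many secreted matrix metalloproteinases were listed at 0. The membrane-bound collagenase Mmp14 had 242, 237, 239 and 230.3 TPM and the gelatinase Mmp2 93.8, 49, 64.6 and 33.5 TPM. The matrix metalloproteinases Mmp1, Mmp3, Mmp8, Mmp9, Mmp10, Mmp12 and Mmp13 were listed at 0 in all 4 libraries. In the list of matrix proteases 14 of 43 members were listed at 0. That was a smaller share than over the whole table, where 16767 of 32623 entries were at 0. The aggrecanase Adamts1 was the highest member with 497, 631, 601 and 811 TPM, and Adamts4 averaged 0.268 TPM. Of the metalloproteinase inhibitors, Timp2 averaged 713 ± 41.1 TPM, Timp3 405 ± 44.1 TPM and Timp1 357 ± 64.2 TPM, while Timp4 averaged 0.0125 TPM. Of the plasminogen activators, Plat averaged 35.1 ± 3.696 TPM and Plau 0.0225 TPM.

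**Figure D4:**
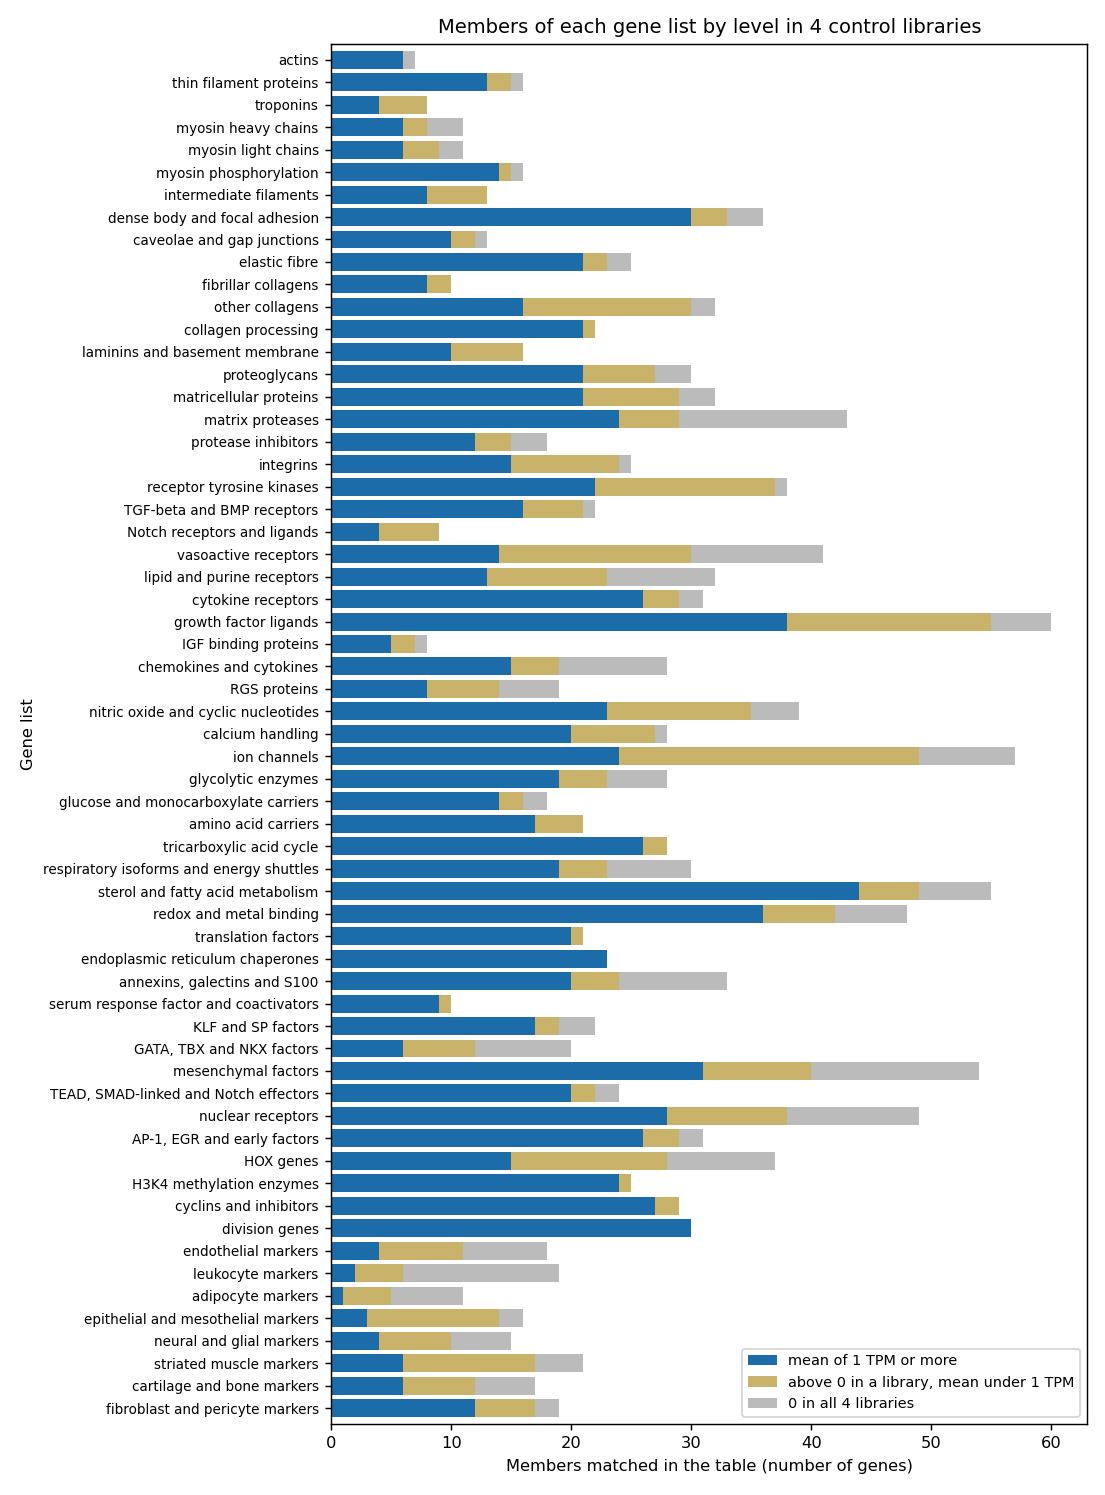
Members matched for each gene list, split into those with a mean of 1 TPM or more, those above 0 with a lower mean, and those at 0 in all 4 control libraries. All 30 division genes and all 23 endoplasmic reticulum chaperones are expressed, against 2 of 19 leukocyte markers.

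Integrin beta chains were led by Itgb1 with 917, 947, 991 and 1197 TPM, the common partner of the collagen, laminin and fibronectin receptors. Itgb5 averaged 214 ± 4.12 TPM, and the leukocyte chain Itgb2 was listed at 0. The alpha chain Itga8, which pairs with Itgb1 and is prominent in smooth muscle, had 132, 285, 117 and 167 TPM, highest in library 2. Itgav averaged 107 ± 30.01 TPM, Itga1 103 ± 22.1 TPM and Itga5 99.97 ± 14.9 TPM. The collagen receptor chain Itga2 averaged 1.94 ± 0.395 TPM.

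Of 38 receptor tyrosine kinase genes matched, 22 were expressed. Pdgfrb, the PDGF receptor of mural cells, was the highest with 492, 469, 362 and 371 TPM, and its paralogue Pdgfra had 2.73, 7.69, 2.38 and 4.5 TPM. Axl, a receptor of the ligand Gas6, averaged 214 ± 28.8 TPM, and Gas6 itself averaged 1108 ± 119 TPM. Of the FGF receptors, Fgfr3 had 175, 108, 238 and 328 TPM, highest in library 4. Fgfr2 averaged 120.3 ± 4.62 TPM and Fgfr1 53.8 ± 9.34 TPM, while Fgfr4 averaged 0.04 TPM. The insulin-like growth factor receptor Igf1r averaged 24.5 ± 5.89 TPM, the insulin receptor Insr 15.6 ± 3.75 TPM and Egfr 10.5 ± 2.73 TPM. The endothelial receptors Kdr, Flt4 and Tek averaged 0.0075, 0.325 and 0.522 TPM, and Tie1 was listed at 0. Flt1, the VEGF receptor that also has a soluble form, had 1.02, 0.8, 1.34 and 6.72 TPM.

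The main TGF-beta and BMP receptor genes were expressed at moderate levels. Tgfbr2 averaged 75.8 ± 13.8 TPM, Tgfbr1 30.7 ± 4.49 TPM and Bmpr1a 99.4 ± 12.9 TPM, whereas the endothelial receptors Eng and Acvrl1 averaged 0.13 and 0.08 TPM. The inhibitory SMAD gene Smad7 had 89.9, 54.1, 152 and 229 TPM, lowest in library 2 and highest in library 4. The ligand genes were led by Tgfb3 (470.4 ± 56.2 TPM), ahead of Bmp4 (274 ± 32.9 TPM), Tgfb2 (213 ± 34.6 TPM) and Tgfb1 (71.5 ± 7.39 TPM). The BMP antagonist Grem1 had 1131, 1935, 1048 and 1623 TPM, more than the antagonist Nog with 2.21, 2.67, 1.15 and 8.08 TPM. In the Notch family the ligand Jag1 averaged 139 ± 26.8 TPM, and the receptors Notch2 and Notch3 averaged 33.6 ± 5.08 TPM and 29.9 ± 9.31 TPM. Dll1, Dll3 and Dll4 averaged 0.172, 0.0375 and 0.0675 TPM.

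Growth factor and vasoactive ligands covered a wide range. Edn1, the vasoconstrictor endothelin 1, had 173, 107, 137 and 162 TPM, while Edn2 and Edn3 were listed at 0. Hbegf, a ligand of the EGF receptor family, had 169, 139, 228 and 293 TPM. The PDGF chains Pdgfa and Pdgfb averaged 38.5 ± 5.69 TPM and 19.6 ± 2.59 TPM. Fgf2 averaged 3.94 ± 0.465 TPM, and the mesenchymal ligands Fgf7 and Hgf averaged 0.352 and 0.0025 TPM. Of the IGF system, binding proteins were highest. Igfbp2 had 1813, 1625, 1811 and 1035 TPM and Igfbp7 882, 1223, 979.6 and 909.5 TPM. The growth factor Igf1 averaged 0.107 TPM, and Igf2 had 0.03, 0.05, 0.06 and 1.33 TPM, above 1 TPM in library 4 alone. Igfbp3 averaged 0.323 TPM, Igfbp5 had 0.42, 4, 0.17 and 1.76 TPM and Igfbp1 was listed at 0.

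Of 41 vasoactive receptor and related genes matched, 14 were expressed, with a list median of 0.102 TPM. Over the whole table a similar share was expressed, 11593 of 32623 entries. The highest were Npr3, the natriuretic peptide clearance receptor, with 425, 367, 398 and 347 TPM, and F2r, the thrombin receptor, with 328, 412, 244 and 264 TPM. The natriuretic guanylyl cyclases Npr2 and Npr1 averaged 57.5 ± 12.7 TPM and 26.4 ± 7.28 TPM. Ednra, the endothelin receptor of smooth muscle, had 8.6, 9.99, 10.1 and 7.1 TPM, and Ednrb averaged 0.0225 TPM. The angiotensin receptors Agtr1a, Agtr1b and Agtr2 averaged 0.51 TPM, 0 and 0.015 TPM. Among adrenergic receptors Adra1b averaged 5.57 ± 0.375 TPM, Adra1d averaged 2.38 ± 0.993 TPM, and Adra1a was listed at 0. The muscarinic receptors Chrm1, Chrm2 and Chrm3 were listed at 0. Serotonin receptor Htr2a averaged 13.03 ± 1.78 TPM, and Htr1b had 0.06, 0, 0.11 and 0.8 TPM, highest in library 4. Of lipid and purine receptors, the sphingosine phosphate receptors S1pr2, S1pr3 and S1pr1 averaged 37.9 ± 7.48 TPM, 20.2 ± 5.71 TPM and 7.08 ± 0.606 TPM, and S1pr4 and S1pr5 were listed at 0. The ATP-gated channel gene P2rx4 averaged 34.3 ± 1.88 TPM, while P2rx1, the main such channel of contractile vascular muscle, was listed at 0.

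RGS proteins, which shorten signalling by G proteins, were led by Rgs4 with 618, 840.4, 536 and 642 TPM. Rgs5, known from pericytes and arterial SMC, had 226, 996, 222 and 1115 TPM, so that libraries 2 and 4 were both far above 1 and 3. Rgs2 had 155, 81.4, 345 and 304 TPM, with libraries 3 and 4 above 1 and 2. Rgs16 averaged 0.12 TPM and Rgs1 was listed at 0. In nitric oxide signalling, the soluble guanylyl cyclase subunit Gucy1b3 had 25.6, 26.8, 46.1 and 31.3 TPM, whereas its partner Gucy1a3 averaged 0.562 TPM. Nos3, the endothelial nitric oxide synthase, averaged 0.0975 TPM and Nos1 was listed at 0. Of the phosphodiesterases, Pde4b had 99.01, 86.9, 169.8 and 254 TPM, Pde5a averaged 42.7 ± 6.76 TPM and Pde3a 24 ± 3.88 TPM.

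Of 28 calcium handling genes matched, 20 were expressed. Atp2a2, the SERCA2 pump, had 169.9, 235, 202 and 201 TPM, Atp2a1 averaged 23.9 ± 6.39 TPM and Atp2a3 0.0175 TPM. Itpr1, the inositol trisphosphate receptor of smooth muscle, averaged 47.7 ± 10.2 TPM, while the ryanodine receptors Ryr1, Ryr2 and Ryr3 averaged 0.0214, 0.168 and 0.0175 TPM. The voltage-gated channel gene Cacna1c, which carries the L-type current, had 19.8, 25.5, 20.1 and 23.7 TPM, and the other pore-forming L-type genes Cacna1d and Cacna1s averaged 0.0297 and 0.0175 TPM. Store-operated entry genes Stim1 and Orai1 averaged 34.04 ± 4.78 TPM and 21.1 ± 3.997 TPM. Of 19 potassium channel and subunit genes on the ion channel list, counted by symbols that begin with Kcn, 6 were expressed and none averaged above Kcnk2, with 5.23, 4.51, 3.91 and 3.76 TPM. Kcnma1, the large-conductance channel of contractile SMC, had 1.04, 3.3, 0.52 and 1.69 TPM, and its smooth muscle subunit Kcnmb1 had 1.81, 1.06, 1.87 and 0.76 TPM. Kcna5 was listed at 0. Pkd2, a channel of the polycystin family, was the highest of the 57 channel genes with 384, 487, 297 and 250.3 TPM.

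Of 28 glycolytic enzyme genes matched, 19 were expressed. Aldoa averaged 1089 ± 70.7 TPM, Gapdh 1019.8 ± 86.1 TPM and Eno1 930.0 ± 101 TPM. Of the genes for the first enzyme of glycolysis, Hk1 had 96.2, 97.6, 97.98 and 87.7 TPM and Hk2 12.4, 12.8, 29.1 and 67.98 TPM. Hk2 was highest in library 4 and low in libraries 1 and 2, while Hk3 was listed at 0. Pgk2 of testis was also listed at 0, and Pklr averaged 0.015 TPM beside Pkm with 609 ± 69 TPM. Lactate dehydrogenase RNA was mainly Ldha, with 562, 524, 602 and 646 TPM, ahead of Ldhb, with 50.5, 32.8, 85.95 and 38.8 TPM. Hk2 and Ldhb were the 2 members, of 18 at 10 TPM or more, whose libraries ranged at least 2-fold. The glucose carriers Slc2a3 and Slc2a1 averaged 84.1 ± 17.1 TPM and 43.7 ± 4.98 TPM, and the insulin-regulated Slc2a4 averaged 3.29 ± 1.1 TPM.

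Of 28 matched genes of the tricarboxylic acid cycle, 26 were expressed. On a list of tissue forms of respiratory subunits and energy shuttles, 19 of 30 were expressed and 7 were listed at 0 in every library. Mdh2 averaged 299 ± 22.05 TPM, Cs (citrate synthase) 190.2 ± 5.93 TPM and Idh3a 86.2 ± 6.09 TPM. Of the kinases that switch off pyruvate dehydrogenase, Pdk1 averaged 30.8 ± 4.47 TPM and Pdk4, a gene of fasted muscle, 0.667 TPM. The muscle forms of cytochrome oxidase subunits were low. Cox6a1 averaged 501 ± 75.5 TPM and Cox6a2 1.86 ± 0.568 TPM, and Cox7a2 averaged 280.0 ± 35.5 TPM and Cox7a1 0.297 TPM. Creatine kinase RNA was mainly of the brain type, Ckb with 90.9, 76.9, 51.9 and 47.4 TPM against Ckm with 2.7, 2.11, 2.96 and 1.54 TPM. Carnitine palmitoyltransferase RNA was mainly Cpt1a, with 45.6 ± 8.48 TPM, and the muscle form Cpt1b averaged 0.99 TPM. Among sterol and fatty acid genes, 44 of 55 were expressed. The desaturase Scd2 had 767, 456, 487 and 465 TPM, against its paralogue Scd with 49.05, 27.8, 27.3 and 30.9 TPM. Hmgcs1 of sterol synthesis had 271, 223, 279.9 and 258 TPM. The adipocyte genes Fabp4 and Plin1 were listed at 0.

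Of 48 redox and metal binding genes matched, 36 were expressed. The ferritin genes Fth1 and Ftl1 averaged 1289 ± 113 TPM and 1244 ± 308 TPM. Extracellular superoxide dismutase, Sod3, had 795, 894, 655 and 550.4 TPM, above Sod1 with 308 ± 32.4 TPM and Sod2 with 77.4 ± 11.05 TPM. Nox4, the oxidase of vascular SMC, averaged 17.95 ± 5.41 TPM, and Nox1 averaged 0.147 TPM. Akr1b1, aldose reductase, had 444, 924, 341 and 308 TPM, highest in library 2. Eef1a1 stood beside its muscle and brain paralogue Eef1a2, which averaged 0.345 TPM. The endoplasmic reticulum chaperone Hspa5 had 1051, 995, 1356 and 1413 TPM. Atf4, the factor of amino acid shortage, had 451, 528, 546 and 760.0 TPM. Its known targets Asns, Psat1 and Trib3 were highest in library 4, as were 21.5% of all entries with a mean of 10 TPM or more. Asns had 52.9, 42.4, 33.6 and 117 TPM, Psat1 had 15.1, 9.21, 11.54 and 52.97 TPM and Trib3 had 16, 9.05, 18.9 and 97.01 TPM. The cystine carrier Slc7a11 had 1.11, 0.65, 0.49 and 5.55 TPM, again highest in library 4. Of the S100 genes, S100a6 averaged 2894 ± 574 TPM and S100a4 868 ± 191 TPM, while S100a8, S100a9 and S100b were at 0, 0 and 0.0325 TPM.

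Transcription factors of the contractile program were present at moderate levels. Srf had 71.3, 94.8, 102 and 85.2 TPM, and Myocd (myocardin) had 26.8, 26.2, 27.6 and 30.6 TPM. The related coactivator Mkl1 averaged 97.9 ± 16.5 TPM. Mef2a and Mef2d averaged 72.3 ± 6.53 TPM and 67.9 ± 7.57 TPM, above Mef2c with 2.62 ± 1.05 TPM. Klf4, which opposes the contractile program, had 119.8, 33.5, 288 and 261 TPM, so it was low in library 2 and high in libraries 3 and 4. Klf5 had 2.7, 2.94, 2.1 and 3.06 TPM and Klf2 29.1, 25.5, 62.1 and 59.3 TPM. Gata6 had 46.4, 42.8, 52.3 and 46.5 TPM and Tbx18 63.7, 52.3, 45.8 and 41.8 TPM, whereas Gata4 averaged 0.0875 TPM and Gata5, Tbx5, Tbx20, Nkx2-5 and Nkx2-3 were listed at 0. Osr1 was the highest of the mesenchymal factors with 371, 405, 198 and 146 TPM, while Tcf21, Hand1, Wt1 and Sox10 were listed at 0. Foxs1 averaged 80.5 ± 20.1 TPM, Foxc2 67.2 ± 20.2 TPM and Prrx1 36.95 ± 8.02 TPM. Snai1 had 32.9, 33.99, 93.7 and 114 TPM, and Snai2 averaged 12.2 ± 3.03 TPM. Sox9 averaged 21.7 ± 3.62 TPM and Runx2 1.27 ± 0.496 TPM.

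The transducers of the Hippo pathway, Yap1 and Wwtr1, averaged 92.9 ± 11.1 TPM and 105 ± 7.67 TPM, and their partner Tead1 averaged 60.8 ± 10.5 TPM. All 4 TEAD genes were expressed. Id3, a dominant inhibitor of helix-loop-helix factors, had 700.1, 965, 1313 and 1156 TPM, and Id1 had 225, 179, 396 and 444 TPM. The Notch effectors Hes1 and Hey2 had 125, 109, 228 and 422 TPM, and 78.2, 81.9, 142 and 166 TPM. Hey1 had 1.71, 0.86, 2.9 and 8.84 TPM, and Heyl averaged 0.688 TPM. Of 19 members of this list of effectors at 10 TPM or more, 7 were higher in both of libraries 3 and 4 than in both of 1 and 2, among them Id3, Id1, Hes1 and Hey2, beside 9.85% of all entries at that level.

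Among 49 nuclear receptor genes, 28 were expressed. Nr4a1, an early response gene, led with 723, 897, 1578 and 1712 TPM. The glucocorticoid receptor Nr3c1, summed over its 2 entries, averaged 115 ± 12.1 TPM, and the mineralocorticoid receptor Nr3c2 1.59 ± 0.646 TPM. Nr2f2 averaged 35.2 ± 1.07 TPM and Nr2f1 3.02 ± 0.47 TPM. Ppard averaged 14.5 ± 1.67 TPM, while Ppara and Pparg averaged 0.897 and 0.573 TPM. The estrogen receptor Esr1 averaged 6.32 ± 0.745 TPM. Of 37 HOX genes matched, 15 were expressed, beside 11593 of 32623 entries in the whole table. Hoxd13 alone averaged above 100 TPM, with 115, 136, 92.7 and 97.4 TPM. Hoxd9 and Hoxd8 averaged 15 ± 2.32 TPM and 14.7 ± 1.64 TPM, Hoxa5 summed over 2 entries averaged 12.6 ± 1.92 TPM and Hoxc6 9.45 ± 1.55 TPM. Neighbours of Hoxd13 in its cluster were low, with Hoxd11 at 0.0725 TPM, Hoxd10 at 0.77 TPM and Hoxd12 listed at 0.

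Enzymes of H3K4 methylation, a histone mark of active genes, were all expressed except Smyd1 (0.01 TPM), with 24 of 25 members at 1 TPM or more. Kdm1a, which encodes the demethylase LSD1, had 57.9, 54.6, 57.5 and 50.4 TPM, well above its paralogue Kdm1b with 4.71, 5.11, 4.44 and 5.68 TPM. The LSD1 partner Rcor1, summed over 2 entries, averaged 49.99 ± 4.99 TPM. Of the other demethylases Kdm5b averaged 50.2 ± 4.29 TPM and Kdm5a 23.9 ± 4.07 TPM. The methyltransferase genes Setd1a and Kmt2a averaged 25.3 ± 3.09 TPM and 6.805 ± 2.37 TPM, and the shared subunit Wdr5 41.4 ± 1.24 TPM.

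Immediate early factors were abundant after 72 h without serum and differed between libraries. Of the 25 members of the AP-1 and EGR list at 10 TPM or more, 11 had a range of at least 2-fold, beside 4.73% of all entries at that level. Fos had 1212, 1399, 1699 and 1877 TPM, Egr1 had 917, 1299.7, 1399 and 2072 TPM and Junb had 751, 1368, 1722 and 1501 TPM, so that library 1 was lowest for all 3. Fosb had 390.4, 283, 788 and 1096 TPM. Fosl1 had 12.9, 2.98, 26.8 and 69.1 TPM and Atf3 81.7, 10.8, 92.3 and 160.5 TPM, both lowest in library 2 and highest in library 4. Nr4a3 had 7.26, 6.98, 111 and 233 TPM and Nr4a2 53.6, 85.8, 259 and 342 TPM. Of the same 25 members, 15 were higher in both of libraries 3 and 4 than in both of 1 and 2, a pattern held by 9.85% of all entries at that level. No label separates these libraries, and the cause was not tested. The list was chosen with earlier results of these data known, so its shares are description only. Secreted early genes followed. Lif had 50.2, 20.6, 157 and 246 TPM, Cxcl1 had 35.6, 17.6, 146 and 238 TPM and Il6 had 5.71, 2.91, 11.9 and 30.3 TPM, each highest in library 4 and lowest in library 2. Ccl7 had 140.3, 265, 122 and 193 TPM and Cxcl12 291, 203, 425 and 260.3 TPM, with another order of libraries. Il1a, Il1b and Tnf were listed at 0 in all 4 libraries.

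**Figure D5:**
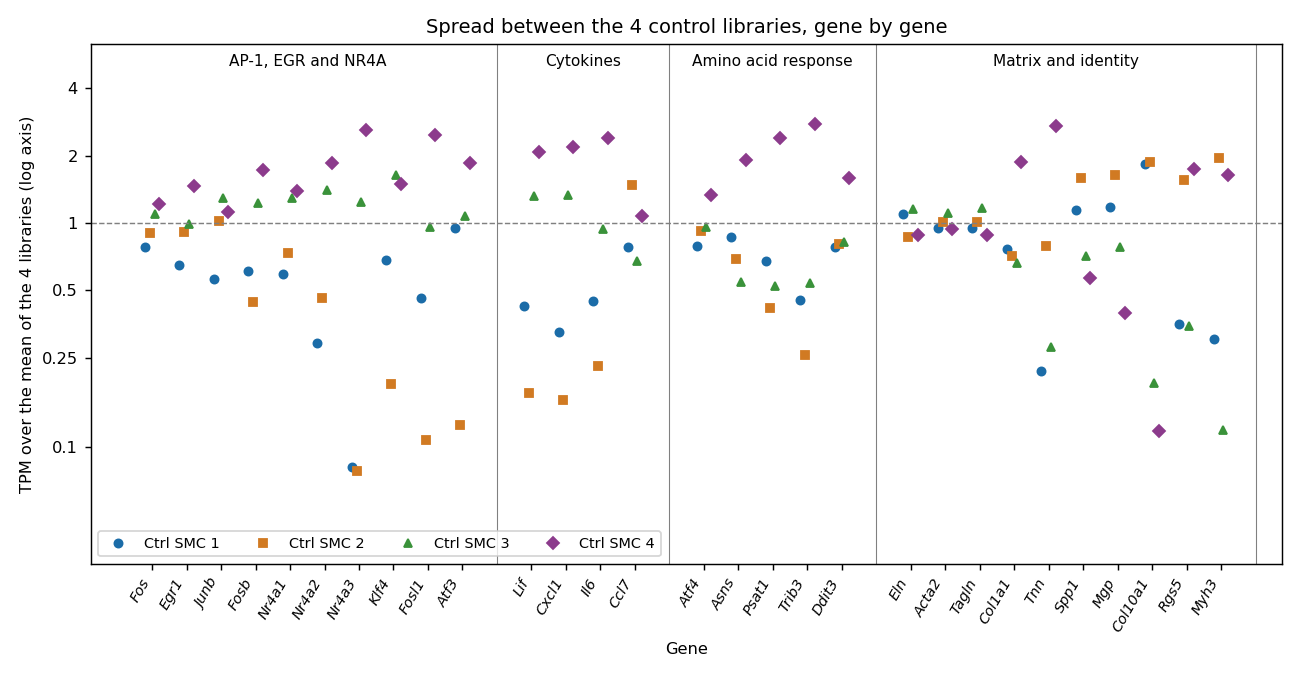
TPM of each gene in each control library divided by the mean of the 4 libraries, on a log axis, for early factors, cytokines, amino acid response genes and matrix or identity genes. Acta2, Tagln and Eln lie near 1 in all libraries, while Nr4a3, Fosl1 and Cxcl1 spread widely with library 4 on top. These genes were placed in the plot after their values were seen.

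Across the 8226 entries with a mean of 10 TPM or more, the highest library was 1.29 times the lowest at the median. At least a 2-fold range was found for 389 of them (4.73%), and a range of 1.5-fold or more for 1650 (20.1%). Of the 389, library 4 was the highest for 184, library 2 for 98, library 3 for 60 and library 1 for 47. Without library 4 the count of entries with a 2-fold range was 211. The 12 most variable genes by this ratio included early genes already named (Nr4a3, Fosl1, Atf3, Cxcl1 and Lif) and the matrix genes Col10a1 and Tnn. Fst, the activin-binding follistatin, had 11.8, 2.86, 15.5 and 47.6 TPM, and Noct, a circadian and serum-induced gene, had 20.6, 9.35, 44.7 and 109 TPM. Hspa1a, an inducible heat shock gene, had 0, 50.9, 35.8 and 1.09 TPM, so it was high in libraries 2 and 3. At the other end, the 12 steadiest genes at 100 TPM or more included genes of ubiquitin transfer, mitochondria, RNA binding and vesicle transport. Ube2d3 had 258, 263, 259 and 263 TPM, Vdac1 had 186, 183, 186 and 182 TPM and Cnbp had 524, 529.7, 537 and 527 TPM. Atp5a1, a subunit of ATP synthase, had 539, 529, 545 and 529.7 TPM.

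Cell division genes were expressed after 72 h without serum. All 30 members of that list were above 1 TPM by mean, with a list median of 18.6 TPM. Mki67, the proliferation antigen Ki-67, had 12.1, 9.38, 6.97 and 17.1 TPM and Top2a had 29.6, 23.8, 17.9 and 38.7 TPM. Pcna had 112, 101, 104 and 122 TPM and was the only member above 100 TPM. Of 21 members at 10 TPM or more, 19 were lowest in library 3, a place that 36.9% of all entries at that level took. Cyclin D genes differed, Ccnd3 with 175 ± 21.4 TPM, Ccnd1 with 40.6, 18.1, 26.1 and 57.5 TPM and Ccnd2 with 6.76, 4.72, 1.08 and 4.44 TPM. Of the inhibitors, Cdkn1a (p21) had 272, 140.3, 129 and 132 TPM, highest in library 1. Cdkn1b (p27) averaged 112 ± 10.1 TPM, and Cdkn1c 0.235 TPM.

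Most markers of endothelial, leukocyte, adipocyte, epithelial and neural cells were near 0, with a few exceptions. The endothelial, leukocyte, adipocyte, epithelial and mesothelial, and neural lists together held 0.0253 ± 0.00294% of all TPM. Outside that share are the striated muscle, cartilage and bone, and fibroblast and pericyte lists. Their sums averaged 195, 64.7 and 1030 TPM, in that order. Of 18 endothelial markers 4 were expressed, and their summed level ran between 24.2 and 36.3 TPM. Cdh5, Emcn and Cldn5 were listed at 0 and Vwf averaged 0.00741 TPM, while Egfl7 had 16.5, 13, 16.2 and 18.4 TPM. Of 19 leukocyte markers, 13 were listed at 0 in all libraries, among them Ptprc (CD45), Adgre1 and Cd3e, and the summed level ran between 52.6 and 62.6 TPM. Cd14 had 49.4, 38.7, 48.6 and 45.3 TPM, which was most of that sum. The epithelial markers Epcam and Cdh1 averaged 0.04 and 0.065 TPM, though Upk3b had 32.1, 21.96, 23.1 and 14.9 TPM and Krt8 21.9, 22.01, 19.1 and 13.99 TPM. Of the neural markers Snap25, Syp and Rbfox3 were listed at 0, and Eno2, a glycolytic enzyme also counted there, had 120.1, 113, 102 and 80.5 TPM. Of 21 striated muscle markers 6 were expressed, with Acta1, Myh3 and Tnnt2 at 10 TPM or more. Acta1 made up 77.3 ± 16.1% of their summed level. The striated muscle regulator Myod1 had 0, 0, 0 and 0.36 TPM and Myog had 0, 0.35, 0.24 and 1.53 TPM, both highest in library 4. The cardiac peptides Nppa and Nppb averaged 0.025 and 0.0375 TPM. Among 11 adipocyte markers Cidea alone was expressed, with 6.07, 3.89, 2.49 and 1.94 TPM. Of 17 cartilage and bone markers 6 were expressed, with Sox9, Col10a1 and Matn3 at 10 TPM or more and Sp7 and Sost listed at 0. Fibroblast and pericyte markers overlapped with SMC genes, and 12 of 19 were expressed. Rgs5, with values given above, made up 54.7 ± 24.5% of their summed level. Mcam had 156, 147, 203 and 113 TPM and Col14a1 149, 83.3, 185 and 160.4 TPM, while Cd34 and Tcf21 were listed at 0 and Dpt averaged 0.0425 TPM. The part of other cells in any level given here was not tested.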

How the data were processed

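RNA from rat aortic SMC was isolated with an RNeasy kit, freed of genomic DNA with DNase I and made into TruSeq Stranded polyA libraries, per the labels' protocols. The authors deposited TPM in 1 table of 32623 gene entries, and each library's column adds up to the same total, which was checked. The sources used here name no aligner, quantifier, genome build or annotation. TPM keep no sequencing depth, so depth is unknown and no counting interval is given. The table's 4 columns of group means were not used, and 26 entries whose symbols a spreadsheet had turned into dates were kept under their identifiers.

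The 4 columns of the control group were described by mean, SD and range, with no filter, no pseudocount other than 1 for correlations, no scaling and no test. The 61 gene lists and the genes on them were chosen with earlier results of these data known. List counts set beside the share over all entries are therefore description only. Symbols were matched without regard to case. Where a symbol was present as numbered copies alone, the copies were summed. Unmatched symbols were not used. Genes named are the 30 highest, members of the lists, and the 12 most and 12 least variable entries with a mean of at least 10 and 100 TPM. Those outside the rule are said to be so. Alternatives were leaving out each library, the median, taking out mitochondrial genes, other thresholds and median-of-ratios scaling. Promoters came from RefSeq's table for GRCr8, matched by symbol for expressed and silent entries alike. Plots were drawn in matplotlib 3.10.9 and values computed in pandas 2.3.3, under Python 3.11.15, and the procedure was tested on simulated data.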

Additional observations from a re-analysis of the deposited data

Results flagged for a closer look

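In a group of 4 libraries, the gap between the highest or lowest library and its nearest neighbour was divided by the whole range, and a ratio above Dixon's 95% critical value for 4 samples marked 1 library as apart. Chance marks about 1 in 20 such groups. Of 389 results tested, 42 (10.8%) were marked, with library 4 apart in 17, library 3 in 10, library 1 in 8 and library 2 in 7. Among all 8226 entries with a mean of 10 TPM or more, 414 (5.03%) were marked. The genes of the text were chosen in part for their range between libraries. They also include genes with means under 10 TPM, which that figure leaves out. For both reasons their share is not set against it.

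Library 4 was the high one for Actc1 with a ratio of 0.847, Col1a1 with a ratio of 0.913, Col4a2 with a ratio of 0.899, Egfr with a ratio of 0.856, Flt1 with a ratio of 0.909, Pdk1 with a ratio of 0.892, Psat1 with a ratio of 0.867, Trib3 with a ratio of 0.888 and Slc7a11 with a ratio of 0.877. Library 4 was the low one for Hk1 with a ratio of 0.83 and S100a4 with a ratio of 0.966. Col4a2 had 651, 629, 614 and 988 TPM in libraries 1 to 4. Egfr had 9.59, 9, 8.76 and 14.5 TPM in libraries 1 to 4. Pdk1 had 28.01, 29.03, 28.7 and 37.5 TPM in libraries 1 to 4. S100a4 had 970.1, 962, 957 and 582 TPM in libraries 1 to 4.

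Library 3 was the high one for Csrp2 with a ratio of 0.936. Library 3 was the low one for Postn with a ratio of 0.841, Lox with a ratio of 0.867 and Kdm5b with a ratio of 0.841. Kdm5b had 53.2, 51.7, 43.8 and 51.9 TPM in libraries 1 to 4.

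Library 1 was the high one for Eno1 with a ratio of 0.928, Scd2 with a ratio of 0.899, Scd with a ratio of 0.836, Ftl1 with a ratio of 0.891 and Cdkn1a with a ratio of 0.921. Eno1 had 1082, 878, 888 and 873 TPM in libraries 1 to 4. Ftl1 had 1704, 1135, 1065 and 1073 TPM in libraries 1 to 4.

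Library 2 was the high one for Tgfb1 with a ratio of 0.925. Tgfb1 had 67.3, 82.6, 68.5 and 67.8 TPM in libraries 1 to 4.

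A further group of marked genes averaged under 1 TPM. Tnni2, Col24a1, Sparcl1, Has2, Timp4, Plau, Hgf, Ednrb, Pklr, Hoxd11, Smyd1, Myod1, Nppa and Nppb were above 0 in a single library or at 0 in a single library and have a ratio of 1. The ratio was 0.852 for Tagln3, 0.896 for Col4a3, 0.977 for Igf2, 0.863 for Htr1b, 0.833 for Nox1, 0.941 for Eef1a2 and 0.964 for Vwf.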

How the results depend on the processing

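No paired analysis was possible because the 4 control libraries are 1 group and no result comes from a test. The count of genes varying at least 2-fold among libraries was 389 as reported. It ran between 211 and 322 with 1 library left out, lowest without library 4, and was 152 with a minimum mean of 50 TPM. The TPM share of the 20 most abundant genes was 14.5% without mitochondrial genes, in place of 16.3%. The TPM share of glycolytic enzymes was 0.695% without mitochondrial genes, in place of 0.649%. Both moves follow from taking those genes out of the total. The other shares moved by less than 1 SD when those genes were taken out. The count of entries at or above 1 TPM ran between 9746 at 5 TPM and 12184 at 0.5 TPM. Of 382 named genes, 23 moved by more than 1 SD without mitochondrial genes, all upward, and none under median-of-ratios scaling. Leaving out a library or taking the median cannot move a mean of 4 values by more than 1 SD, so neither says anything on that scale. In fold, 47 of the 382 moved over 1.5 times under some alternative, most often without library 4, and a further 13 fell to 0. No gene named as 1 entry had numbered copies to add. TPM keep no sequencing depth, so what depth limits cannot be given, and levels under 1 TPM are the least certain.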

Other observations

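Other genes with a wide range between libraries, chosen after their values were seen, fell into more than 1 order of libraries. In the first group, library 4 was highest and library 3 next. Nfkbia, which encodes the inhibitor of NF-kappa-B, had 39.3, 33.4, 139.3 and 242.8 TPM in libraries 1 to 4. Tnfaip3, another brake on that factor, had 14.1, 12.3, 23.2 and 69.3 TPM. Bhlhe40, a circadian repressor, had 114.6, 83.3, 272.9 and 430.5 TPM, and Irs2, the insulin receptor substrate, had 35.4, 53.7, 106.4 and 173.2 TPM. Irf1, a transcription factor of the interferon response, had 16.98, 19.3, 33.8 and 107.5 TPM.

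A pair of interferon-inducible genes had libraries 1 and 2 above 3 and 4, an order held by 34.9% of all entries with a mean of 10 TPM or more. Isg15 had 28.6, 16.9, 4.86 and 3.23 TPM, and Gbp2 had 31.8, 21.5, 7.31 and 9.01 TPM. Ifi27l2b had 23.7, 10.3, 2.45 and 12.5 TPM, so library 3 was the low one. The chemokine gene Cxcl13 had 89.9, 9.16, 66.5 and 8 TPM, so libraries 1 and 3 were the high ones, the other way round from Rgs5. Rxfp3, a receptor of relaxin-family peptides best known from brain, had 59.3, 148.8, 28.1 and 78.3 TPM. No label separates the libraries in any of these orders, and the cause was not tested.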
